A study of Mus musculus with 7 samples.

Results

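Uhrf1-/- LSK cells were compared directly with wild-type LK cells, 2 populations of blood-forming cells sorted from the fetal liver. The comparison used 4 of the 7 libraries of the series, 3 of Uhrf1-/- LSK cells and 1 of wild-type LK cells. It was made over the 7950 of 22680 genes that reached at least 5 FPKM (fragments per kilobase of transcript, scaled to the size of the library) in the LK library or in the mean of the Uhrf1-/- libraries. The other 14730 genes were under this minimum. Mbd4 lay just inside it with 5.0038 FPKM in the LK library, and Kdsr just outside it with 4.9998 FPKM. The comparison asked which gene programmes of LK cells were present in Uhrf1-/- LSK cells at a similar level, which were higher and which were lower.

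All cells came from the livers of C57BL/6 fetuses at 13.5 days post coitum. Both genotypes shared strain, tissue and stage. The labels give the genotypes as Uhrf1-/- for the LSK libraries used here and wild type for the LK library. The sources used here do not give the method of deletion or the cells in which it acts. The sorting protocol in the labels is written for LSK cells, so the gates of the LK sort are not described, and nothing says how many fetuses went into a library. Genotype, sorted population and library differ together between the groups, and their parts in a difference cannot be told apart. For this reason the levels of the 3 wild-type LSK libraries are given beside the main genes, as values only.

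LSK cells are lineage-negative cells positive for Sca-1 and c-Kit, the fraction in which hematopoietic stem cells are found. LK cells are positive for c-Kit but negative for Sca-1, and most are progenitors committed to the red cell, megakaryocyte or myeloid lines. The Uhrf1 protein recognises hemimethylated sites behind the replication fork and brings in the maintenance methyltransferase Dnmt1. Red cell formation runs through transcription factors such as Gata1 and Klf1, which switch on the genes for heme synthesis, iron uptake, globin chains and the red cell membrane. Megakaryocytes, the platelet precursors, share Gata1 with the red cell line.

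The LK library had no replicate, so no test was made and no p-value is given. A gene was called higher when each of the 3 Uhrf1-/- libraries lay at least 2-fold above the LK library, and lower when each lay at least 2-fold below it. It was called within 2-fold when each lay less than 2-fold from LK. Differences are Uhrf1-/- minus LK on the log2(FPKM + 1) scale, where 2-fold is a difference of 1. This scale understates the difference of genes with low values. Of the 7950 genes, 758 were higher (9.53%), 629 were lower (7.91%) and 4406 were within 2-fold (55.4%). The other 2157 (27.1%) were in none of these classes. At any size, all 3 libraries lay above LK in 2617 genes (32.9%) and below it in 3543 genes (44.6%). The median difference over all 7950 genes was -0.12. With the other deposited value, a scaled count set here to the same total in each library, this median moved up by 0.13. On that scale 647 genes were higher and 268 lower. The higher genes were then 70.7% of the higher and lower genes, against 54.7% with FPKM.

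**Figure D1:**
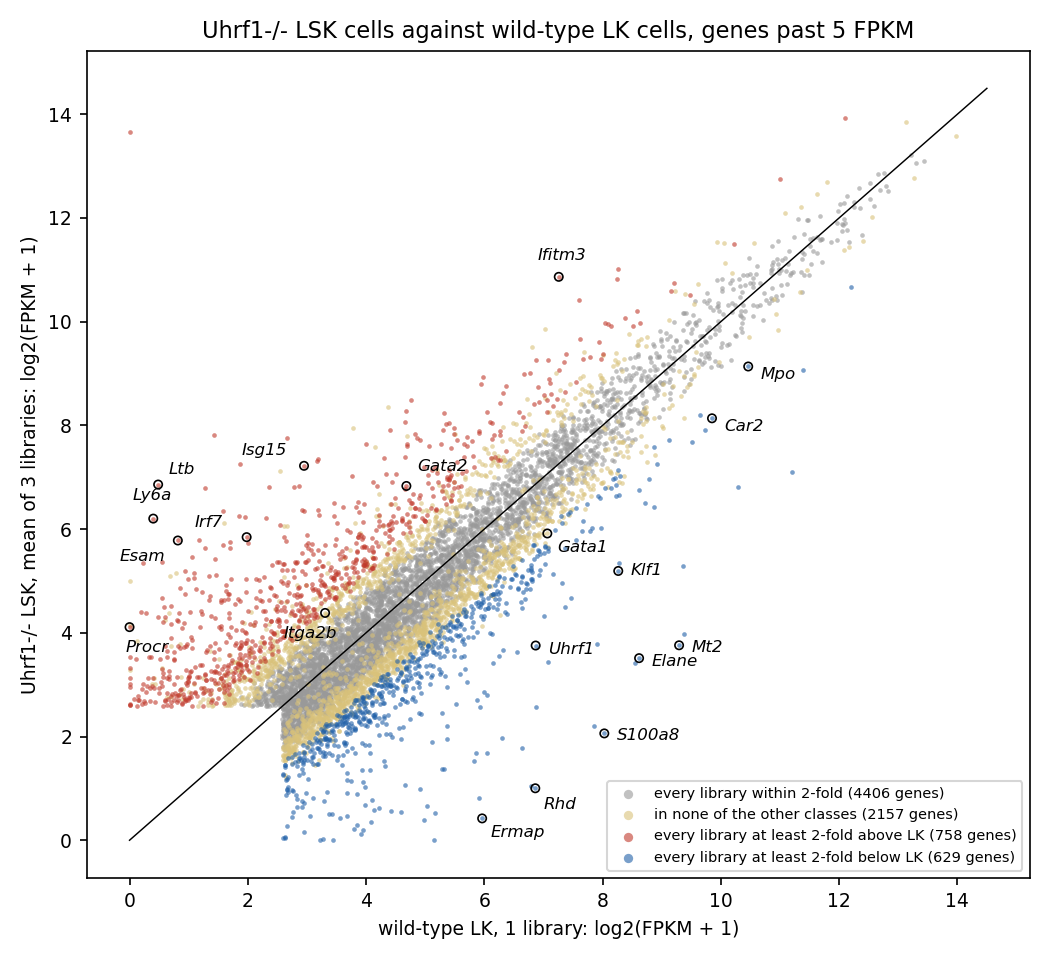
Level of each of the 7950 genes in the LK library (x axis) and as the mean of the 3 Uhrf1-/- LSK libraries (y axis), both as log2(FPKM + 1), with colours for the classes and circles around named genes. Most genes lie along the line of equal level, red cell and granule genes such as Rhd, Ermap and Elane lie below it, and stem cell and interferon-stimulated genes such as Esam, Procr and Isg15 lie above it.

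Deposited scaled counts summed to between 18994563 and 21017402 in these 4 libraries, with estimated read totals of 17349403 to 21852609. On the log2 scale Uhrf1-/- replicates 1 and 2 correlated at r = 0.994 across genes, and replicate 3 correlated with them at 0.952 and 0.944. The correlation with the LK library was 0.837, 0.846 and 0.860 for replicates 1, 2 and 3. These are descriptions across genes, which are not independent. Replicate 3 stood apart from replicates 1 and 2. In 402 genes (5.06%) replicates 1 and 2 were at least 2-fold above LK while replicate 3 was within 2-fold of it, and in 388 genes (4.88%) the same held below LK. Without replicate 3, 1177 genes were higher and 1018 lower. With replicate 3 alone, 1076 were higher and 1339 lower. Ribosomal protein genes, a large share of any library, summed to 149427 and 151242 FPKM in replicates 2 and 1, to 219908 FPKM in replicate 3 and to 187975 FPKM in LK. In wild-type LSK replicate 2 they summed to 49136 FPKM, against 195173 and 188958 FPKM in replicates 1 and 3.

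The labels were checked first on the deleted gene and on the sorting markers. Uhrf1 (Entrez gene 18140; chromosome 17, 56303337 to 56323486 of GRCm38, a protein-coding gene) stood at 10.2, 8.78 and 18.6 FPKM in Uhrf1-/- replicates 1, 2 and 3 and at 116 FPKM in the LK library. In wild-type LSK the values were 63.0, 66.8 and 113 FPKM. Every Uhrf1-/- library was below every wild-type library of either population. Ly6a, which encodes Sca-1, stood at 84.6, 96.4 and 36.9 FPKM across the Uhrf1-/- replicates and at 0.321 FPKM in LK. Sca-1 defined the gate, so this difference checks the sort and is not a result. Kit, the c-Kit gene of both gates, was within 2-fold, at 27.9, 27.2 and 24.4 FPKM against 30.5 FPKM in LK. Cd34, another surface marker of early progenitors, was also within 2-fold, at 162, 156 and 134 FPKM against 94.6 FPKM.

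Of 16 transcription factors of the red cell line past the minimum, 1 was lower in Uhrf1-/- LSK than in LK cells and 0 were higher. The 1 lower is 6.25%, near the 7.91% of all genes, and the 0 higher stand against 9.53% of all genes. Another 8 were within 2-fold, against 55.4% of all genes, and 7 were in no class. The median difference was -0.44. Gata1 (Entrez gene 14460; chromosome X, 7959260 to 7976663), the master regulator of red cells and megakaryocytes, stood at 54.3, 55.5 and 68.3 FPKM across the Uhrf1-/- replicates (59.4 ± 7.78, SD, n = 3) and at 133 FPKM in LK. The difference was -1.28 to -0.95, so all 3 libraries lay below LK, 2 of them by slightly more than 2-fold. Wild-type LSK replicates stood at 8.01, 9.18 and 2.09 FPKM. Gfi1b, a repressor of the red cell and megakaryocyte lines, was at 119.7, 119.5 and 89.5 FPKM against 128 FPKM in LK, a difference of -0.51 to -0.10. Tal1, a partner of Gata1 in its DNA-bound complex, was at 13.6, 12.5 and 16.4 FPKM against 25.5 FPKM. Lmo2, the bridging protein of that complex, was at 249, 268 and 184 FPKM against 183 FPKM, where the lowest library nearly equalled LK.

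Klf1 was the lower member. Klf1 (Entrez gene 16596; chromosome 8, 84901982 to 84905291) encodes the red cell factor that activates adult globin and many membrane and heme genes. It stood at 34.3, 38.9 and 33.6 FPKM across the Uhrf1-/- replicates (35.6 ± 2.89, SD, n = 3) and at 307 FPKM in LK, a difference of -3.15 to -2.95. Wild-type LSK cells had 27.1, 20.1 and 2.25 FPKM, so the 3 Uhrf1-/- values lay above all of these and far below LK. Zfpm1, the Gata1 cofactor also called FOG1, was at 103, 83.3 and 19.9 FPKM against 13.043 FPKM in LK. Replicates 1 and 2 were more than 2-fold above LK and replicate 3 was within 2-fold. Nfe2, a factor of globin and platelet genes, was above LK in all 3 libraries by 0.82 to 1.45, at 194, 165 and 125 FPKM against 70.3 FPKM.

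**Figure D2:**
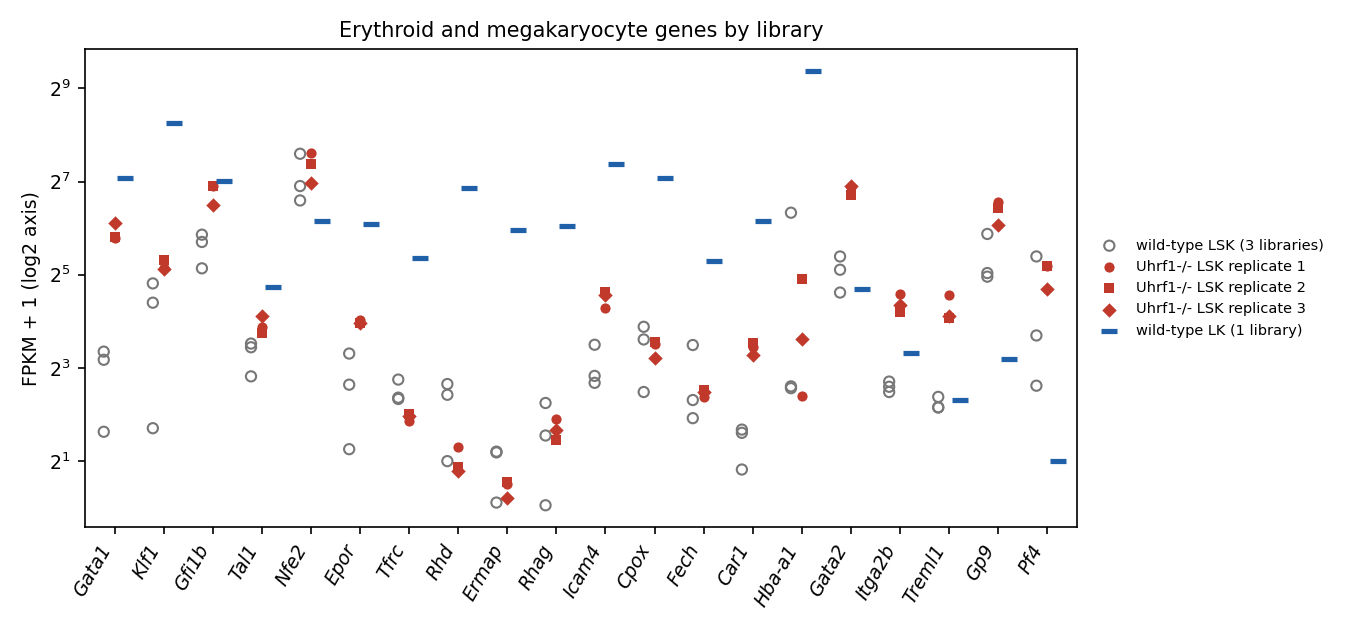
FPKM + 1 on a log2 axis for 20 red cell and megakaryocyte genes in each library, with Uhrf1-/- LSK replicates in red, the LK library as a blue bar and wild-type LSK libraries as open circles. Gfi1b reaches the LK bar, Klf1 and the membrane, heme and globin genes lie below it, and Gata2, Itga2b, Treml1, Gp9 and Pf4 lie above it.

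Most genes of the red cell membrane and blood groups were lower in Uhrf1-/- LSK than in LK cells. Of 27 members matched, 21 passed the minimum, and of these 14 were lower, 4 were within 2-fold, 2 were in no class and 1 was higher, against 7.91% of all genes lower. The median difference was -2.08. Rhd (Entrez gene 19746; chromosome 4, 134864536 to 134896172), a Rhesus blood group protein, stood at 1.47, 0.815 and 0.721 FPKM across the Uhrf1-/- replicates and at 115 FPKM in LK, a difference of -6.08 to -5.56. Ermap, an erythroid membrane protein, stood at 0.413, 0.454 and 0.15 FPKM against 61.4 FPKM in LK. Rhag, the partner of Rhd in the membrane, stood at 2.74, 1.74 and 2.16 FPKM against 65.3 FPKM. In all 3 genes every Uhrf1-/- library was close to 0 beside LK, and so were the wild-type LSK libraries, with 5.28, 4.35 and 0.994 FPKM for Rhd and 1.92, 3.74 and 0.034 FPKM for Rhag.

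Some other members kept part of the LK level. Icam4, the Landsteiner-Wiener blood group adhesion molecule, was at 18.3, 23.6 and 22.6 FPKM against 165 FPKM in LK, and Mfsd2b, a sphingosine-1-phosphate exporter, was at 12.2, 11.017 and 9.70 FPKM against 30.2 FPKM. In the wild-type LSK libraries it was 10.3, 6.09 and 5.40 FPKM for Icam4 and 1.26, 2.67 and 1.47 FPKM for Mfsd2b, all below the Uhrf1-/- values. Add2, a protein of the spectrin skeleton, was near 0 like Rhd, at 0.535, 0.241 and 0.144 FPKM against 30.7 FPKM in LK. The members within 2-fold were Epb4.1, Gypc, Slc2a1 and Cd47, which are also found on cells other than red cells. Bcam, the Lutheran adhesion molecule, was the 1 higher member and is listed at 0 in LK, with 8.73, 5.81 and 5.59 FPKM across the Uhrf1-/- replicates.

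Promoter windows of 6 lower red cell genes are shown because each holds a match to the binding motif of Gata factors. They are the 130 bases before the RefSeq transcription start in GRCm38.p6, read in the direction of the gene, with matches to AGATAA or TGATAA on either strand in capitals. They were chosen after the matches and values were seen.
Rhd: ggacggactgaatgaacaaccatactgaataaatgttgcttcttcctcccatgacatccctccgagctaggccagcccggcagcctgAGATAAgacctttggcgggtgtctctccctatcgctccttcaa
Ermap: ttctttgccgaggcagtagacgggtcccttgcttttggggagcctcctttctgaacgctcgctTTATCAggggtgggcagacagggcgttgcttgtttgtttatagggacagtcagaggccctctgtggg
Rhag: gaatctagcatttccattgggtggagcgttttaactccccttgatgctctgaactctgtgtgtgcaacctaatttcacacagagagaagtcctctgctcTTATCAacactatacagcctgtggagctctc
Icam4: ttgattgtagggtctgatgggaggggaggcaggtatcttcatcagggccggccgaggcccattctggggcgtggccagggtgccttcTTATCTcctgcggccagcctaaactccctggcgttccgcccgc
Cpox: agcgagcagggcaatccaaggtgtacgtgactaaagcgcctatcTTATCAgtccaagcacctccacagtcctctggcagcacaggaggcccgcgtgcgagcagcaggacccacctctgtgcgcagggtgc
Epor: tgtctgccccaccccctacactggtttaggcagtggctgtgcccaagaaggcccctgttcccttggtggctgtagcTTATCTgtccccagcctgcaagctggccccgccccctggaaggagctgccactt
The windows lie at chr4:134864406-134864535, plus strand, for Rhd, chr4:119189996-119190125, minus strand, for Ermap, chr17:40811019-40811148, plus strand, for Rhag, chr9:21029302-21029431, plus strand, for Icam4, chr16:58670078-58670207, plus strand, for Cpox, and chr9:21963577-21963706, minus strand, for Epor. The match starts 43 bases before the transcription start in Rhd and Icam4, 31 in Rhag, 54 in Epor, 67 in Ermap and 86 in Cpox. In the 250 bases before the start, a match was present in 6 of the 11 lower membrane genes with a RefSeq window (54.5%). Over all membrane genes past the minimum, lower or not, it was present in 6 of 16 (37.5%). It was present in 702 of 6400 genes past the minimum (10.97%) and in 5092 of 27025 genes of the whole RefSeq table (18.8%). Over all lower genes it was present in 67 of 473 (14.2%). Over lower heme genes it was present in 2 of 9 (22.2%), and over all heme genes past the minimum in 2 of 15 (13.3%). Among the transcription factors of the red cell line, of which only Klf1 was lower, it was present in 6 of 13 genes (46.2%). A match describes the letters of the window and does not show that a factor binds there.

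Most heme synthesis and heme handling genes were lower too, with a median nearer to LK than that of the membrane genes. Of 18 members past the minimum, 12 were lower (66.7%, against 7.91% of all genes), 4 were in no class, 2 were within 2-fold and 0 were higher, with a median difference of -1.57. Cpox, the coproporphyrinogen oxidase of the mitochondrion, stood at 10.4, 10.8 and 8.21 FPKM across the Uhrf1-/- replicates and at 133 FPKM in LK. Fech, which inserts iron into the porphyrin ring as the last step, stood at 4.18, 4.78 and 4.56 FPKM against 38.0 FPKM. Blvrb, a biliverdin reductase abundant in red cells, stood at 48.9, 44.2 and 21.008 FPKM against 659 FPKM and was the furthest from LK, at -4.91 to -3.73. Urod, a cytosolic enzyme of the middle of the pathway, was closer to LK, at 124, 134 and 79.7 FPKM against 214 FPKM. Hmox2, a heme oxygenase found in most cells, was within 2-fold. Alas2, the red cell form of the first enzyme, was under the minimum in both groups, with 0, 0.0942 and 0.175 FPKM against 1.84 FPKM.

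Of 14 genes of iron handling past the minimum, 6 were lower, against 7.91% of all genes, 4 were within 2-fold, 4 were in no class and 0 were higher, with a median difference of -0.80. Tfrc, the transferrin receptor through which red cell precursors take up iron, stood at 2.64, 3.01 and 2.90 FPKM across the Uhrf1-/- replicates and at 40.3 FPKM in LK, a difference of -3.51 to -3.36. Steap3, the ferrireductase of the same endosome, differed by -3.52 to -2.85, and Slc11a2, which moves iron out of that endosome, by -2.20 to -2.03. The metallothioneins, small metal-binding proteins, were among the furthest from LK. Mt2 stood at 16.6, 12.9 and 8.15 FPKM against 627 FPKM and Mt1 at 154, 152 and 101 FPKM against 2346 FPKM. Ftl1, a ferritin light chain, was within 2-fold at 6123, 6064 and 4193 FPKM against 4479 FPKM. Fth1, the heavy chain, stood at 2375, 2499 and 1237 FPKM against 2819 FPKM, with replicate 3 alone more than 2-fold below LK. Tfr2, a second transferrin receptor, was within 2-fold, at 11.1, 12.9 and 20.4 FPKM against 22.1 FPKM. Trf, transferrin itself, was counted with the hepatoblast genes and was within 2-fold, at 20.6, 16.7 and 12.8 FPKM against 10.6 FPKM.

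Globin and red cell enzyme genes held both lower members and members within 2-fold. Hba-a1, an adult alpha-globin gene, stood at 4.24, 28.9 and 11.3 FPKM across the Uhrf1-/- replicates and at 663 FPKM in LK. Hbb-bs, an adult beta-globin gene, stood at 0.0083, 1.85 and 8.95 FPKM against 232 FPKM. Of 5 globin genes past the minimum, 3 were lower, against 7.91% of all genes, and 2 within 2-fold. The 2 within 2-fold were Hbb-b1 and Hbb-b2, both above LK in all 3 libraries. Hbb-b1 stood at 166, 181 and 143 FPKM against 137 FPKM, and Hbb-b2 at 393, 390 and 427 FPKM against 267 FPKM. Both entries were therefore far above Hbb-bs in the Uhrf1-/- libraries. All 11 matched globin genes summed to 599, 619 and 606 FPKM against 1401 FPKM in LK. Their listed starts on chromosome 7 are 38285 and 53494, against 103826523 for Hbb-bs. Whether they are genes apart from Hbb-bs in this strain was not examined. They are therefore not read as further globin genes that reach the LK level. Globin copies are near-identical and their reads can be divided among them in ways not known here, so single globin values are uncertain. Of 14 red cell enzyme and receptor genes, 4 were lower, 7 were within 2-fold, 2 were in no class and 1 was higher. Over all genes 7.91% were lower, 55.4% were within 2-fold and 9.53% were higher. The counts within 2-fold and higher were near the shares of all genes. Pklr, the red cell pyruvate kinase, stood at 0.334, 0.144 and 0.818 FPKM against 34.9 FPKM and Car1, a red cell carbonic anhydrase, at 9.91, 10.6 and 8.67 FPKM against 69.9 FPKM. Epor, the erythropoietin receptor, stood at 15.3, 14.7 and 14.7 FPKM against 67.4 FPKM, with 8.89, 5.22 and 1.38 FPKM in wild-type LSK libraries. Prdx2 and Gpx1, antioxidant enzymes abundant in many cells, were within 2-fold.

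Megakaryocyte and platelet genes included several higher members and 0 lower ones. Of 30 members, 17 passed the minimum, and of these 6 were higher (35.3%, against 9.53% of all genes), 8 were in no class and 3 were within 2-fold, with a median difference of 1.1298. Itga2b (Entrez gene 16399; chromosome 11, 102453297 to 102469883), the CD41 integrin chain of megakaryocytes and early blood progenitors, stood at 22.9, 17.3 and 19.4 FPKM across the Uhrf1-/- replicates (19.9 ± 2.85, SD, n = 3) and at 8.90 FPKM in LK. The difference was 0.88 to 1.27, and 2 of the 3 libraries were past 2-fold. Treml1, a receptor of platelet granules, stood at 22.5, 15.8 and 16.4 FPKM against 3.93 FPKM. Wild-type LSK libraries lay below LK for Itga2b, with 4.58, 5.52 and 5.03 FPKM, and near LK for Treml1, with 4.19, 3.43 and 3.45 FPKM.

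Several platelet genes were also high in wild-type LSK cells. Gp9, a subunit of the von Willebrand factor receptor, stood at 93.6, 85.6 and 66.3 FPKM against 8.11 FPKM in LK, with 57.7, 31.8 and 30.1 FPKM across wild-type LSK replicates. Pf4, a platelet chemokine, stood at 35.3, 35.5 and 24.9 FPKM against 0.994 FPKM, with 41.0, 11.9 and 5.13 FPKM in wild-type LSK. Gp5, another subunit of the platelet receptor, stood at 10.1, 8.72 and 3.53 FPKM against 2.60 FPKM, and only replicates 1 and 2 were past 2-fold. Fli1, a megakaryocyte and endothelial factor, F2r, the thrombin receptor, and Plek, the platelet pleckstrin, were within 2-fold. With the mean of the 3 libraries 12 members were higher, and with replicate 3 alone 11 were higher. Over all genes these looser settings gave 1199 and 1076 higher, against 758.

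Of the 28 mast cell, basophil and eosinophil genes, 7 passed the minimum and 5 of these were within 2-fold, against 55.4% of all genes. Cpa3, the mast cell carboxypeptidase, stood at 42.3, 55.3 and 41.7 FPKM across the Uhrf1-/- replicates and at 49.3 FPKM in LK, so the LK value lay inside their range. Wild-type LSK replicates stood at 3.61, 4.13 and 9.77 FPKM. Prg2, the eosinophil major basic protein, stood at 18.9, 19.6 and 21.2 FPKM against 19.5 FPKM. Hdc, the enzyme that makes histamine, was the 1 lower member, at 8.36, 7.20 and 6.19 FPKM against 28.2 FPKM. Il4, a cytokine of basophils and T cells, was the 1 higher member, at 11.4, 15.5 and 8.08 FPKM against 1.47 FPKM.

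**Figure D3:**
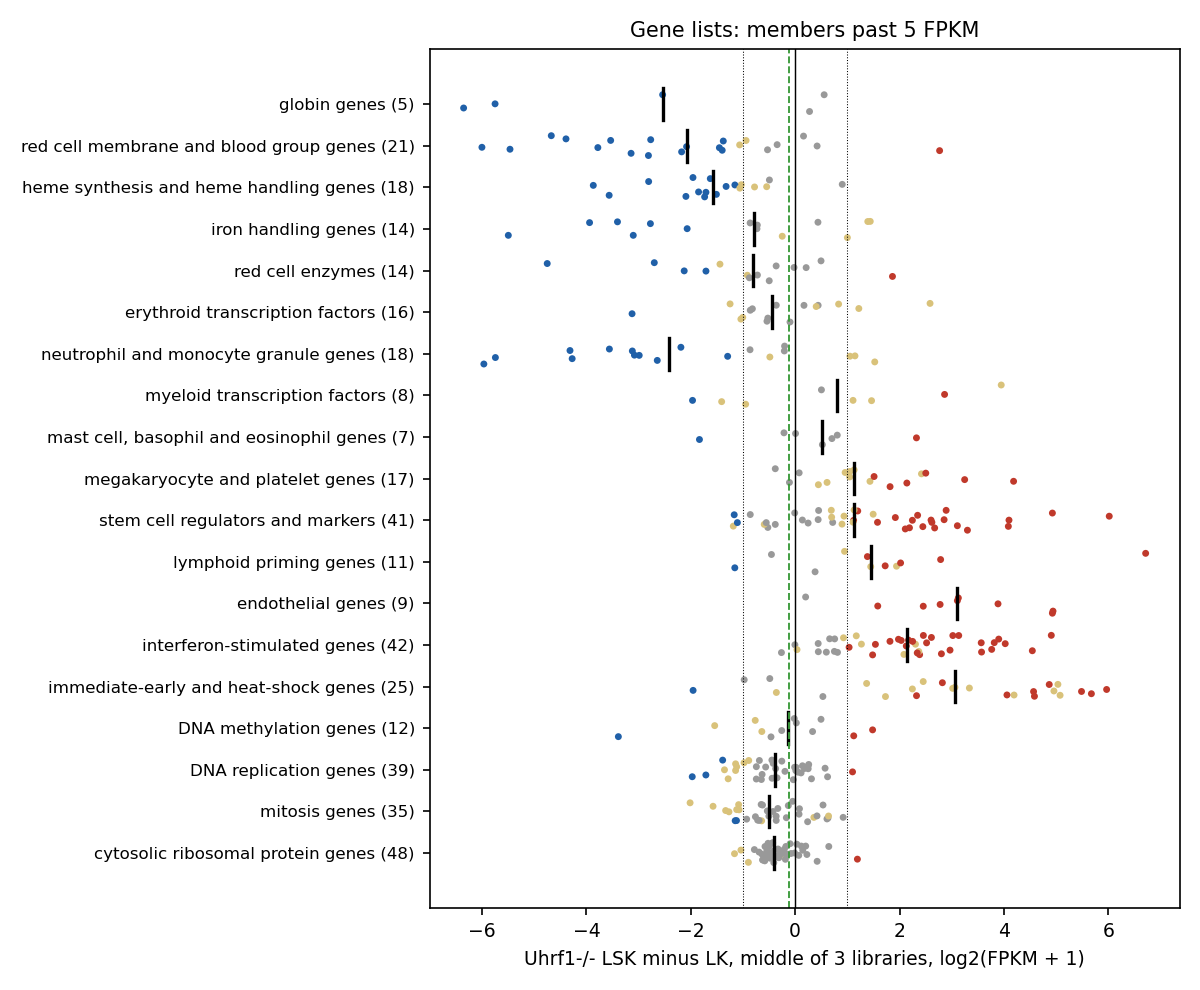
Difference from LK of each gene list member past the minimum (middle of the 3 Uhrf1-/- libraries, log2(FPKM + 1)), coloured by class as in the plot of all genes, with a black bar at each list's median and the number of members in parentheses. Dotted lines mark 2-fold and the green dashed line the median of all genes at -0.12. Granule, globin, membrane and heme lists lie on the left, and stem cell, endothelial and interferon-stimulated lists on the right.

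Most granule genes of neutrophils and monocytes were lower. Of 8 transcription factors of these lineages, 1 was lower (12.5%, near the 7.91% of all genes) and 5 were in no class. Of 18 granule genes past the minimum, 11 were lower (61.1%, against 7.91% of all genes), 3 were within 2-fold, 4 were in no class and 0 were higher, with a median difference of -2.42. Elane (Entrez gene 50701; chromosome 10, 79886312 to 79888216), the neutrophil elastase, stood at 5.95, 6.33 and 18.9 FPKM across the Uhrf1-/- replicates and at 391.9 FPKM in LK, a difference of -5.82 to -4.30. S100a8, a subunit of neutrophil calprotectin, stood at 3.18, 5.22 and 1.11 FPKM against 260.3 FPKM, with 68.0, 17.9 and 13.1 FPKM in wild-type LSK. Ctsg, the granule protease cathepsin G, stood at 17.1, 20.5 and 19.7 FPKM against 128 FPKM, with 5.87, 3.96 and 11.8 FPKM in wild-type LSK. Mpo, the myeloperoxidase of primary granules, was lower by a smaller amount, at 575, 581 and 529 FPKM against 1411 FPKM. Prtn3, a protease of the same granules, was within 2-fold at 545, 546 and 631 FPKM against 995 FPKM. Hp, S100a9 and Fcnb were also lower, by at least 3.54 in every library.

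Spi1, which encodes PU.1, a factor of myeloid and lymphoid cells, was the 1 higher member among 8 myeloid transcription factors past the minimum. That is 12.5%, near the 9.53% of all genes. It stood at 324, 287 and 112 FPKM across the Uhrf1-/- replicates and at 38.5 FPKM in LK, with 385, 250.5 and 81.9 FPKM in wild-type LSK. Cebpe, a factor of late granulocytes, was the 1 lower member, at 6.00, 5.48 and 4.81 FPKM against 24.3 FPKM. Cebpa, a factor of early granulocytes, differed by -1.56 to -0.55. Cebpb, a factor induced by cytokines and stress, stood at 273, 282 and 16.2 FPKM against 16.7 FPKM. Replicates 1 and 2 were far above LK and replicate 3 was at its level.

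**Figure D4:**
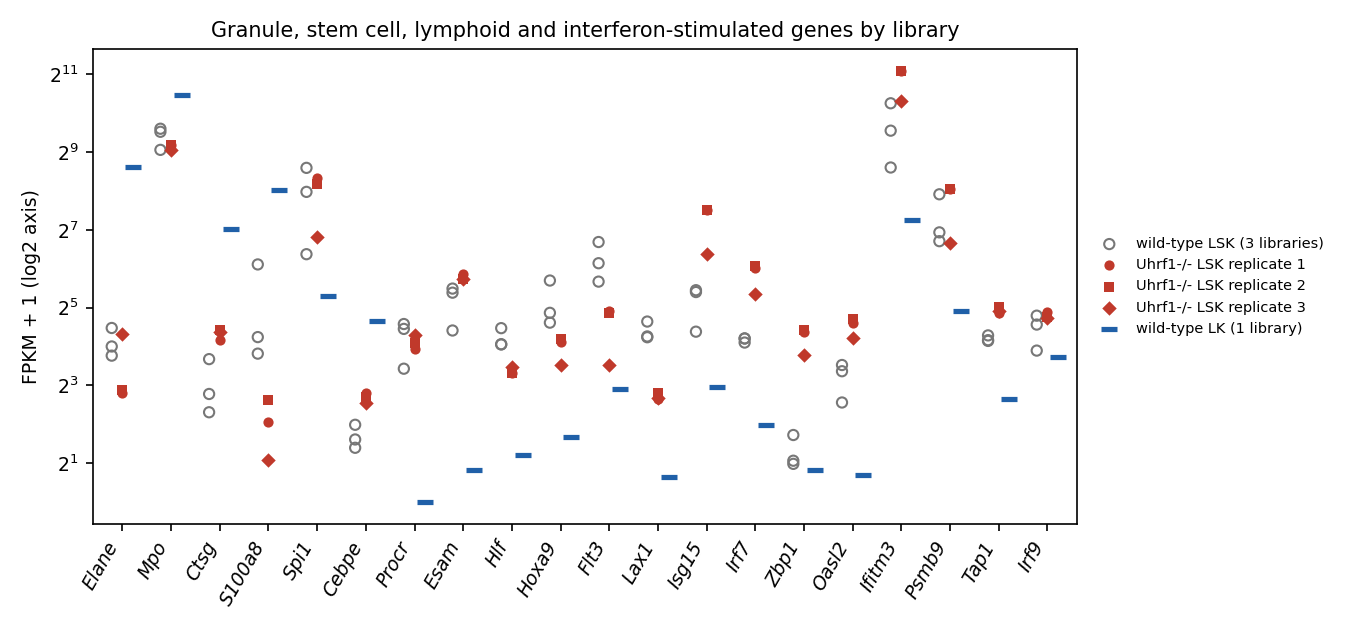
FPKM + 1 on a log2 axis for 20 granule, stem cell, lymphoid and interferon-stimulated genes in each library, with Uhrf1-/- LSK replicates in red, the LK library as a blue bar and wild-type LSK libraries as open circles. The granule genes Elane, Mpo, Ctsg and S100a8 lie below the LK bar, and the stem cell and interferon-stimulated genes lie above it.

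Many stem cell regulators and markers were higher in Uhrf1-/- LSK than in LK cells. Of 41 past the minimum, 20 were higher, 10 were within 2-fold, 9 were in no class and 2 were lower, against 9.53% of all genes higher, with a median difference of 1.1298. The list includes Ly6a, which the sort used. Its median is the same as that of the megakaryocyte list and Fli1 is named under both, so these lists are not independent. Procr, the protein C receptor of stem cells, is listed at 0 in LK and stood at 14.2, 16.1 and 18.5 FPKM across the Uhrf1-/- replicates. Esam (Entrez gene 69524; chromosome 9, 37528089 to 37538319), an adhesion molecule of stem cells and endothelium, stood at 57.1, 52.1 and 52.7 FPKM against 0.762 FPKM, a difference of 4.91 to 5.04. Hlf, a transcription factor of stem cells, stood at 9.01, 9.07 and 10.2 FPKM against 1.33 FPKM, with 15.594, 15.7 and 21.2 FPKM in wild-type LSK. Homeobox genes were among them, with Hoxa9 at 16.3, 17.3 and 10.4 FPKM against 2.18 FPKM and Nkx2-3 at 19.6, 17.0 and 23.0 FPKM against 0.215 FPKM. The wild-type LSK libraries were also above LK in these genes, with 22.9, 20.9 and 9.77 FPKM for Procr, 43.9, 40.7 and 20.3 FPKM for Esam and 28.2, 50.8 and 23.5 FPKM for Hoxa9.

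Gata2 was higher than in LK and lay above the wild-type LSK values as well. Gata2 (Entrez gene 14461; chromosome 6, 88193891 to 88207032), a factor of stem cells and of early red cell, megakaryocyte and mast cell progenitors, stood at 116, 103 and 119 FPKM across the Uhrf1-/- replicates (113 ± 8.31, SD, n = 3). The LK library had 24.7 FPKM and the wild-type LSK libraries 33.4, 41.0 and 23.5 FPKM. The difference from LK was 2.03 to 2.23, and the Uhrf1-/- range overlapped neither wild-type population. Slamf1, the CD150 surface marker, was under the minimum, at 3.98, 3.55 and 5.18 FPKM against 0.494 FPKM in LK and 0.547, 0.883 and 1.17 FPKM in wild-type LSK. Runx1, Fli1, Lyl1 and Lmo2, factors shared by stem and progenitor cells, were within 2-fold of LK. Hmgb3 and Lin28b, which mark fetal and progenitor states, were the 2 lower members, differing by -1.19 to -1.09 and -1.23 to -1.12, and both were within 2-fold with the scaled counts.

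Lymphoid priming genes held higher and lower members. Of 32 members matched, 11 passed the minimum, and of these 5 were higher, against 9.53% of all genes, 3 were in no class, 2 were within 2-fold and 1 was lower, with a median difference of 1.45. Ltb, the lymphotoxin beta chain, stood at 162, 146 and 37.1 FPKM across the Uhrf1-/- replicates and at 0.398 FPKM in LK, with 281, 157 and 30.6 FPKM in wild-type LSK. Lax1, an adaptor of lymphocyte receptors, stood at 5.32, 6.02 and 5.39 FPKM against 0.575 FPKM, with 18.1, 23.958 and 17.9 FPKM in wild-type LSK. Flt3, the receptor of lymphoid-primed progenitors, stood at 29.1, 28.1 and 10.6 FPKM against 6.56 FPKM, where replicate 3 was within 2-fold. Il7r, the interleukin-7 receptor, was under the minimum and below LK in all 3 libraries, at 0.281, 0.371 and 0.0679 FPKM against 1.05 FPKM.

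Most interferon-stimulated genes were higher in Uhrf1-/- LSK than in LK cells. Cells switch these genes on when interferon reaches its receptor or when sensors meet viral nucleic acid, and their products block viral replication or present antigen. Of 42 members past the minimum, 26 were higher (61.9%, against 9.53% of all genes), 9 were within 2-fold, 7 were in no class and 0 were lower, with a median difference of 2.15. Isg15 (Entrez gene 100038882; chromosome 4, 156199424 to 156200818), a ubiquitin-like modifier, stood at 182, 179.5 and 82.6 FPKM across the Uhrf1-/- replicates (148 ± 56.8, SD, n = 3) and at 6.73 FPKM in LK. Wild-type LSK cells had 41.2, 19.8 and 42.6 FPKM, below every Uhrf1-/- library and above LK.

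Among the regulators, Irf7, which amplifies the interferon response, stood at 63.3, 66.1 and 40.1 FPKM against 2.95 FPKM in LK, with 17.4, 17.5 and 16.2 FPKM in wild-type LSK. Irf9, which carries the signal from the receptor to DNA, was closer to LK and differed by 1.0043 to 1.15. Among the sensors, Zbp1, which binds Z-form nucleic acid, stood at 19.9, 20.5 and 12.8 FPKM against 0.762 FPKM, with 2.31, 0.978 and 1.09 FPKM in wild-type LSK. Dhx58, a helicase that tunes RNA sensing, stood at 20.1, 20.9 and 16.5 FPKM against 1.6019 FPKM. For Zbp1 the wild-type LSK values lay closer to LK than to the Uhrf1-/- values, and for Irf7 they lay between LK and the Uhrf1-/- libraries.

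Effectors and antigen presentation genes were also among the higher members. Oasl2, of the oligoadenylate synthetase family, stood at 23.4, 25.0 and 17.6 FPKM across the Uhrf1-/- replicates and at 0.635 FPKM in LK. Ifitm3, which blocks viral entry, stood at 2156, 2172 and 1265 FPKM against 152 FPKM. Ifi27l2a, an interferon-inducible membrane protein, differed by 4.12 to 5.08 and was the furthest from LK in the list. Psmb9, a catalytic subunit of the immunoproteasome, stood at 265, 263 and 101 FPKM against 29.1 FPKM, and Tap1, which carries peptides to MHC class I, at 27.9, 31.3 and 29.1 FPKM against 5.31 FPKM. In wild-type LSK the values were 239.9, 121 and 103 FPKM for Psmb9 and 16.9, 18.5 and 16.7 FPKM for Tap1, so they overlapped the Uhrf1-/- range for Psmb9 and not for Tap1. B2m, the light chain of MHC class I, was in no class, at 683, 839.7 and 229 FPKM against 303 FPKM, with replicates 1 and 2 above LK and replicate 3 below it. Several Ifitm, Oas and H2 genes belong to families of similar sequence, and how their reads were divided is not known here.

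Windows of 3 higher interferon-stimulated genes are shown because they hold the interferon-stimulated response element, searched on both strands as GAAA, any 2 bases and GAAA. They are the 130 bases before the RefSeq start in GRCm38.p6 in the direction of the gene, with matches in capitals, chosen after the matches and values were seen.
Isg15: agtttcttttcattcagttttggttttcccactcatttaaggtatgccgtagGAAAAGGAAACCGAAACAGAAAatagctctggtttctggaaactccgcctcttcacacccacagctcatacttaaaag
Ifit1: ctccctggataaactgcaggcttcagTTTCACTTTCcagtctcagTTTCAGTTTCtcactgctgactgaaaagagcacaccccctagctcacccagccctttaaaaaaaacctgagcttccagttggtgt
Rsad2: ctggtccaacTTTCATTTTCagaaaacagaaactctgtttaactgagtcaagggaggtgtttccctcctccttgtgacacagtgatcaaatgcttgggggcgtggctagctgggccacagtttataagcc
The windows lie at chr4:156200819-156200948, minus strand, for Isg15, chr19:34640759-34640888, plus strand, for Ifit1, and chr12:26456453-26456582, minus strand, for Rsad2. Isg15 holds 3 overlapping matches, Ifit1 holds 2 and Rsad2 holds 1. Ifit1, which binds foreign RNA ends, stood at 9.07, 15.2 and 7.42 FPKM against 0.287 FPKM in LK, and Rsad2, the antiviral enzyme viperin, at 6.31, 5.29 and 4.26 FPKM against 0.204 FPKM. Over the 250 bases before the start, a match was present in 7 of 20 higher members with a window (35.0%). Over all members of the list past the minimum, higher or not, the share was similar, with 10 of 32 (31.25%). A match was present in 210 of 6400 genes past the minimum (3.28%) and in 936 of 27025 RefSeq genes (3.46%). Here too a match does not show that a factor binds there. Over all higher genes it was present in 40 of 602 (6.64%), and over all lower genes in 13 of 473 (2.75%).

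DNA methylation genes lay within 2-fold of LK at about the share of all genes. Of 12 past the minimum, 6 were within 2-fold, against 55.4% of all genes, 3 were in no class, 2 were higher and 1, Uhrf1, was lower. Dnmt1, the maintenance methyltransferase that Uhrf1 recruits, stood at 64.2, 57.9 and 117 FPKM across the Uhrf1-/- replicates and at 63.2 FPKM in LK. Dnmt3b, a methyltransferase that sets new marks, was higher, at 85.6, 82.5 and 119 FPKM against 38.8 FPKM, with 90.1, 114 and 122 FPKM in wild-type LSK. Mbd3, a subunit of a chromatin repressor complex, was higher, at 404, 338 and 311 FPKM against 120.3 FPKM. Of 32 germline genes that promoter methylation is known to silence, 26 were under 1 FPKM in all 4 libraries. The 1 past the minimum, Rhox5, an X-linked homeobox gene, stood at 8.53, 8.18 and 3.96 FPKM against 2.09 FPKM.

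Most genes of cell division and of the ribosome were within 2-fold of LK, as were 55.4% of all genes. Of 39 DNA replication genes, 28 were within 2-fold (71.8%, against 55.4% of all genes) and 7 were in no class. Another 3 were lower (7.69%, near the 7.91% of all genes) and 1 was higher (2.56%, against 9.53%). The median difference was -0.38. Mcm7, of the replicative helicase, stood at 233, 225 and 259 FPKM against 229.7 FPKM in LK. Rrm2, the regulated subunit of ribonucleotide reductase, was the furthest below by the middle of the 3 libraries, at 61.2, 67.6 and 63.3 FPKM against 251 FPKM, with 46.7, 132 and 85.0 FPKM in wild-type LSK. Ccne1, the cyclin of S phase entry, differed by -2.05 to -1.57. Of 35 mitosis genes, 23 were within 2-fold (65.7%, against 55.4% of all genes) and 10 were in no class. The other 2 were lower (5.71%, near the 7.91% of all genes), and the median difference was -0.50. Those 2 were Ccna2, a cyclin, and Bub1, a checkpoint kinase, and both were within 2-fold with the scaled counts. Of 48 ribosomal protein genes, 43 were within 2-fold (89.6%, against 55.4% of all genes).

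Immediate-early genes, which respond within minutes to stimulation or handling of cells, separated replicate 3 from replicates 1 and 2. Of 25 immediate-early and heat-shock genes past the minimum, 9 were higher (36.0%, against 9.53% of all genes), 12 were in no class, 3 were within 2-fold and 1 was lower. In 11 of them replicates 1 and 2 were at least 2-fold above LK while replicate 3 was within 2-fold of it. Fos stood at 167, 150.2 and 14.0 FPKM across the Uhrf1-/- replicates and at 1.41 FPKM in LK, and Egr1 at 48.7, 49.971 and 1.57 FPKM against 0.598 FPKM. Hspa1a, a stress-induced chaperone, stood at 11.3, 9.96 and 0.123 FPKM against 0.352 FPKM. In each of these genes the LK library was closest to replicate 3. Replicate 3 was also the lowest of the wild-type LSK libraries, with 237, 278 and 2.09 FPKM for Fos and 46.2, 79.9 and 1.31 FPKM for Egr1. Without replicate 3, 20 members of the list were higher. The part of these genes' spread in the other differences from LK was not tested.

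**Figure D5:**
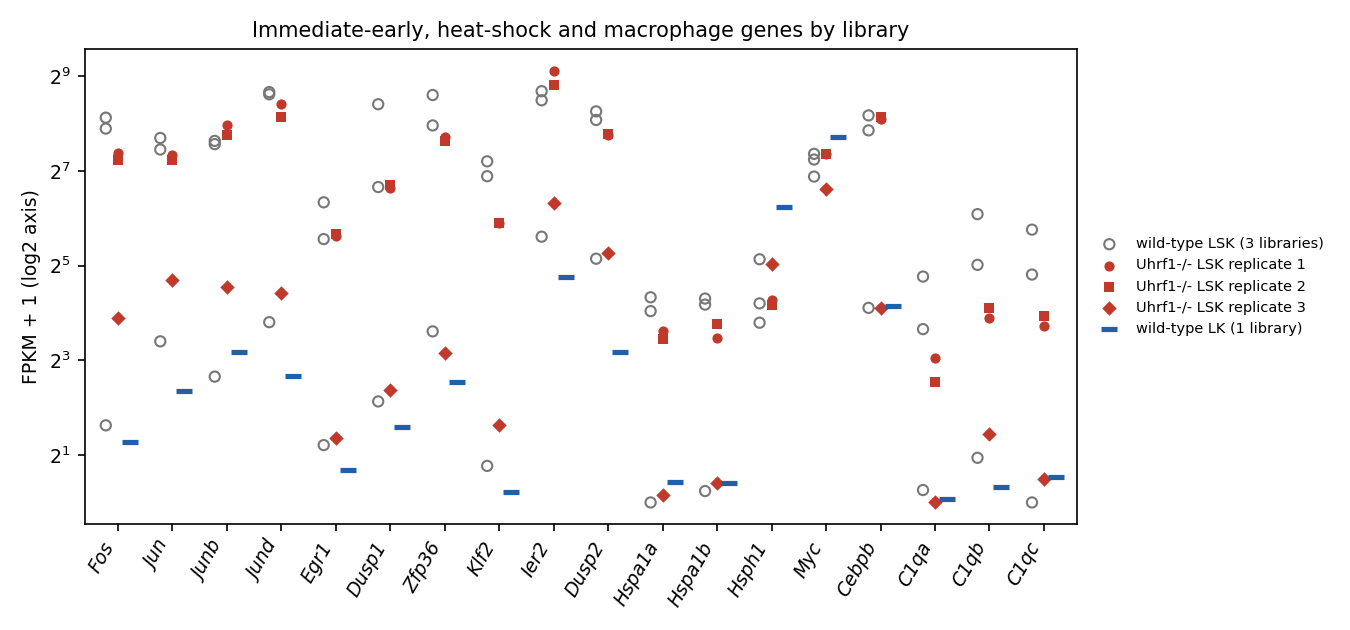
FPKM + 1 on a log2 axis for 18 immediate-early, heat-shock and macrophage genes in each library, with Uhrf1-/- replicates in red (circle, square and diamond for replicates 1, 2 and 3), the LK library as a blue bar and wild-type LSK libraries as open circles. Replicate 3 lies near the LK bar in Egr1, Hspa1a, Cebpb and C1qa, while replicates 1 and 2 lie far above it.

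The counts were taken again with and without replicate 3, the library closest to LK in immediate-early genes. With replicate 3 alone, 15 membrane, 16 heme and 12 granule genes were lower, and 28 interferon-stimulated, 25 stem cell and 11 megakaryocyte genes were higher. Without it 15 membrane, 12 heme and 11 granule genes were lower, and 30 interferon-stimulated, 20 stem cell and 8 megakaryocyte genes were higher. The minimum was applied to the libraries used in each count. Of 7973 genes past it with replicate 3 alone, 1076 were higher and 1339 lower. Of 7952 past it without replicate 3, 1177 were higher and 1018 lower, against 758 and 629 of 7950 with all 3 libraries. Apart from the changed minimum, fewer libraries can only keep or raise a count. Counts that stayed or grew therefore do not show that the libraries match.

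Markers of other cells that a sort could hold were examined next. Of 20 macrophage genes, 10 were under 1 FPKM in all 4 libraries, among them Emr1 and Timd4, and their summed level was 64.2, 60.1 and 19.4 FPKM across the Uhrf1-/- replicates and 22.3 FPKM in LK. The complement genes C1qa, C1qb and C1qc made up part of this, with C1qb at 13.9, 16.1 and 1.71 FPKM against 0.26 FPKM. Their part in the differences was not tested. Of 21 hepatoblast genes, 11 were under 1 FPKM in all 4 libraries, and their sums were 122, 116 and 75.5 FPKM against 56.9 FPKM in LK. Of the 4 past the minimum, 2 were higher, 1 was lower and 1 was within 2-fold. Dlk1, a Notch-like surface protein of hepatoblasts, was higher, at 49.7, 44.1 and 7.56 FPKM against 1.76 FPKM. Krt18, an epithelial keratin, was higher, at 39.4, 43.4 and 36.8 FPKM against 14.8 FPKM. Apoa2, a plasma apolipoprotein, was lower by FPKM and in no class with the scaled counts. The part of these markers in the differences was not tested either. Of 15 stromal genes 0 passed the minimum, with sums of 10.6, 11.1 and 11.2 FPKM against 4.90 FPKM in LK. In bulk RNA of sorted cells, fewer cells of a type and less RNA per cell cannot be told apart, here and for each list above.

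Endothelial genes were higher in 8 of 9 members past the minimum (88.9%, against 9.53% of all genes), with sums of 692, 645 and 602 FPKM across the Uhrf1-/- replicates and 152 FPKM in LK. Sox18, a factor of vessel cells, stood at 49.8, 44.2 and 26.5 FPKM against 0.47 FPKM in LK, with 54.1, 34.0 and 17.9 FPKM in wild-type LSK. Emcn, an endothelial and stem cell sialomucin, stood at 13.2, 12.6 and 15.8 FPKM against 0.626 FPKM. Kdr, Flt1, Stab2 and Lyve1, which define vessel and liver sinusoid endothelium, were under 1 FPKM in all 4 libraries. Esam and Tie1 of this list are also stem cell genes and are counted in both lists.

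By size alone, the 15 genes furthest above LK in the closest Uhrf1-/- library were Hist1h2ap, Esam, Ly6a, Ltb, Serpina3g, Sox18, Ifi27l2a, S100a16, Trim47, Fam181b, Procr, Nkx2-3, Pdzk1ip1, Pf4 and Cdkn1c. Hist1h2ap, a histone gene of a family of near-identical copies, is listed at 0 in LK and at 16654, 14372 and 7834 FPKM across the Uhrf1-/- replicates, where the 0 can be a failed estimate. Cdkn1c, the p57 inhibitor of cell division, stood at 52.1, 62.0 and 37.1 FPKM against 1.99 FPKM, with 51.7, 54.0 and 21.2 FPKM in wild-type LSK. Serpina3g, a protease inhibitor, stood at 73.2, 83.7 and 68.9 FPKM against 2.61 FPKM. The 15 furthest below LK were Rhd, Ermap, S100a8, Cldn13, Mt2, Stfa1, Atp1b2, Hbb-bs, Hba-a1, Add2, Pklr, Elane, Sphk1, Rhag and S100a9. Hbb-bs and Hba-a1 are globin copies, whose single values are uncertain. Of the others, Cldn13, a claudin, stood at 1.28, 1.87 and 0 FPKM against 109 FPKM. Sphk1, a sphingosine kinase, stood at 0.807, 0.533 and 0.41 FPKM against 31.5 FPKM.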

How the data were processed

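Expression was measured by RNA sequencing in sorted fetal liver cells, with 3 Uhrf1-/- LSK libraries, 1 wild-type LK library and 3 wild-type LSK libraries shown beside them. Groups came from the sample titles. FPKM values were used as deposited by the authors. The second deposited value is headed as a count, but it is fractional and was used as a scaled count signal, only as an alternative and for depth. For the alternative each library was set to the same total. A pseudocount of 56.152 was added to every gene whatever its length, and the minimum stayed on FPKM. Differences from the FPKM classes can also come from these steps. TopHat2 2.0.9, Cufflinks 2.1.1 and mm10 are listed, with no role given, per the submitters' processing notes. Annotation, strand and counting were not given in the sources used here. Overlapping genes and near-identical copies cannot be told apart. FPKM is a share of a library, and a few abundant genes lower the rest.

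Between 98.2% and 98.5% of low scaled counts (under 100 steps) were whole multiples of one step per library, to within 0.02 steps, in the 4 libraries, and totals divided by the step gave the estimated reads. For the closest pair of libraries the median chi-square over genes of at least 20 reads was 3.32, above the 0.455 of sampling noise, so all were counted separately.

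Values were compared on log2(FPKM + 1) with Python 3.11.15, with a minimum of 5 FPKM and a limit of 2-fold in every library. The code of the classes was run on simulated large changes in genes well past the minimum. That run does not bear on genes near the 2-fold limit or on the spread of the LK library. Members were the 26 gene lists (705 entries, 699 matched by gene ID), the sorting markers, and the 15 genes furthest from LK in each direction by the closest library. In each list, the text drew on the 4 members furthest from LK in each direction, the 2 members within 2-fold with the highest LK level, and members with a defining role. Predicted genes, rows with no gene ID and symbols that look like dates were not named. Members and lists were chosen with earlier results of these data known. Positions come from RefSeq GRCm38.p6, of the mm10 assembly, matched by gene ID for 22235 rows, and 6400 genes past the minimum had a promoter window. The labels do not say which animals went into which library. Some list members are counted but not reported by name here.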

Additional observations from a re-analysis of the deposited data

How the results depend on the processing

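The 1 LK library limits every comparison, since its own spread is unknown. There were 14 alternatives. Of 195 genes followed singly, 113 were higher or lower, and under every alternative all of these kept their direction and 0 passed to the opposite class. Their class was kept by 112 with median-of-ratios scaling and by 99 with the scaled counts. It was kept by 95 with a pseudocount of 5 and by 81 with a limit of 3-fold. Under the other 10 alternatives all 113 kept it by construction, because these leave the call unchanged or only loosen it. Direction was fixed with a pseudocount of 5 and with 3-fold too. Only median-of-ratios scaling and the scaled counts could have changed it. No paired analysis was possible because the LK group has 1 library and no test was made.

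Counts of higher and lower genes followed the limits. They were 450 and 340 with a pseudocount of 5, 452 and 343 with a minimum of 20 FPKM, 338 and 176 with a limit of 3-fold, 1280 and 1547 with 1.5-fold, and 1199 and 1078 with the mean of the 3 libraries. With the scaled counts 268 genes were lower, and the cause was not tested. With replicate 3 alone 1339 were lower. Leaving out 1 Uhrf1-/- library gave 772 to 1177 higher and 654 to 1018 lower genes, the largest counts without replicate 3. Genes within 2-fold were 2412 with a minimum of 20 FPKM, 11426 with no minimum and 2137 with 1.5-fold.

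In the lists, a pseudocount of 5 left 6 heme genes lower and 2 lymphoid genes higher. A minimum of 20 FPKM, which leaves fewer members, left 9 membrane and 7 granule genes lower, and 3 megakaryocyte, 11 stem cell, 3 lymphoid and 17 interferon-stimulated genes higher. With the mean of the 3 libraries 12 megakaryocyte and 20 immediate-early genes were higher. With replicate 3 alone 11 megakaryocyte genes were higher and 13 red cell factors were within 2-fold. Without 1 library, 9 to 20 immediate-early genes were higher. With replicate 3 alone the minimum was applied to that library and LK, so the members counted could change. The median difference then went from 1.95 to -1.33 for macrophage genes. Over the 4 macrophage members counted with all 3 libraries, the median of replicate 3 was 0.31, so the sign turned with the members. With replicate 3 alone the median also turned from 0.81 to -0.55 for myeloid transcription factors and from 0.52 to -0.18 for mast cell genes. It turned from -0.40 to 0.21 for ribosomal protein genes and from -0.14 to 0.16 for DNA methylation genes. That of the myeloid factors was also -0.23 without replicate 1 or 2, that of the DNA methylation genes 0.036 with median-of-ratios scaling, and that of the mast cell genes -0.066 with no minimum. For hepatoblast genes it turned from 0.98 to -0.15 with a minimum of 1 FPKM and to -0.21 with no minimum.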

Other observations

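Receptors for growth factors were not shifted one way. Of 15 past the minimum, 5 were within 2-fold of LK, 6 were in no class, 3 were lower, against 7.91% of all genes, and 1 was higher. Besides Epor, the lower receptors were Csf1r, of macrophage colony-stimulating factor, at 3.33, 2.55 and 2.55 FPKM across the Uhrf1-/- replicates against 9.19 FPKM in LK, and Ifngr1, of interferon gamma, at 16.1, 16.9 and 14.528 FPKM against 49.3 FPKM. Wild-type LSK cells had 9.51, 14.0 and 10.047 FPKM for Csf1r and 15.001, 59.4 and 32.5 FPKM for Ifngr1. Csf3r, the granulocyte colony-stimulating factor receptor, was above LK in all 3 libraries, at 18.9, 15.4 and 16.8 FPKM against 7.74 FPKM.

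Inhibitors of cell division differed among themselves. Cdkn2d stood at 114, 108 and 80.4 FPKM across the Uhrf1-/- replicates against 29.2 FPKM in LK, with 110.2, 63.1 and 43.6 FPKM in wild-type LSK. Cdkn1a, the main p53 target among them, stood at 14.0, 10.7 and 5.83 FPKM against 4.72 FPKM, where only replicates 1 and 2 were at least 2-fold above LK. Ccng1 and Perp, also p53 targets, were lower by FPKM and in no class with the scaled counts. Of 15 p53 targets and inhibitors past the minimum, 2 were higher (13.3%, against 9.53% of all genes), 2 were lower (13.3%, against 7.91%), 4 were within 2-fold and 7 were in no class.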
